A study of Mus musculus with 28 samples.

Results

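The ERV1 families are the repeat families that the deposited repeat annotation places in class LTR and superfamily ERV1, and they number 69 of the 539 families in the table. No measured value entered that choice. The table also holds 143 families of the superfamily ERVK and 70 of ERVL, and 3 families whose assignment to ERV1 carries a question mark were not counted as members. Among the 69, 15 are internal regions, which hold the viral genes, and 54 are long terminal repeats (LTRs), which flank a provirus or stand alone. By name, 23 belong to groups that are called rodent-named below. They are 1 of GLn, 5 of RLTR1, 3 of VL30, 3 of the murine leukaemia viruses (MLV), 2 of MuRRS, 6 of LTRIS and 3 of MURVY. The remaining 46 are 25 with MER names, 9 with LTR names, 7 further RLTR families and 5 with RMER or RodERV names. Rodent-named is a label for the listed groups only, since the remaining 46 also hold rodent repeats such as RodERV21-int.

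Endogenous retroviruses are remnants of retroviral infections of the germ line that are inherited like genes. Mouse ERV1 elements are gammaretrovirus-like and include MLV, some copies of which still encode proteins, and VL30, whose copies lack viral genes but are transcribed and packaged into the particles of other viruses. In embryonic cells, many are kept silent by KRAB zinc finger proteins, which bind the provirus and recruit TRIM28 and the histone methyltransferase SETDB1, which deposits trimethylation of histone H3 lysine 9 (H3K9me3). Primordial germ cells, the precursors of sperm and eggs, lose most of their DNA methylation around the stage studied.

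The cells were mouse gonadal germ cells at stage E13.5, sorted by flow cytometry as SSEA1+. Knockout (KO) cells carried Setdb1 delta/-. Controls were delta/+ (Het1), flox/- (Het2) and, as wild type (WT), flox/+, so every genotype of the cross carried a modified Setdb1 allele. RNA libraries numbered 2 KO and 4 Het (2 Het1 and 2 Het2, pooled as Het) in each sex, with 1 WT library per sex set beside them. ChIP-seq for H3K9me3 and for H3K27me3, the mark of Polycomb repression, had 1 KO and 1 Het (flox/-) library per sex. The driver of the deletion and whether replicates were separate embryos or pools are not given in the labels, so p-values measure the spread between these libraries, which may be technical.

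RNA and ChIP levels are in RPKM (read density per kilobase, corrected for how deeply a library was sequenced), given by the authors for all copies of a family together, and the number of reads behind a value is unknown. How reads matching many copies were assigned is not given in the sources used here, so reads of near-identical families (MuLV-int and RLTR4_MM-int, or the 5 RLTR1 families) may be shared. RNA was compared on log2(RPKM + 0.1) with limma, with p adjusted by Benjamini-Hochberg over 528 families at 0.1 RPKM or more in at least 2 of 12 libraries. This filter kept 67 of the 69 ERV1 families, and 1 of these, RLTR6-int, reached 0.1 RPKM in the 4 KO libraries and in 0 of the 8 Het libraries, so it entered through KO. Over all families 25 of 528 had fewer than 2 Het libraries at this level. Setdb1 RNA was 27.11 to 31.20 RPKM in male KO cells, against 37.53 to 52.05 RPKM in male Het cells, and 31.28 to 34.65 RPKM in female KO cells, against 38.24 to 58.89 RPKM in female Het cells (log2 difference -0.54, SE 0.13, adjusted p = 0.0783 over both sexes by limma). Whether these reads come from the deleted part of the gene is not given.

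The libraries also differed as a whole. The median family was higher in KO than in Het by 0.29 log2 units in males, 0.05 in females and 0.17 over both sexes, so each difference below is to be read against these shifts. Libraries numbered 2 exceeded those numbered 1 of the same sex and genotype by a median of 0.32 log2 units over all families and 0.23 over ERV1. Germ cell marker genes (8 genes) summed to 2351 to 2477 RPKM in male KO and 2214 to 2761 RPKM in male Het cells, and to 985.9 to 1288 RPKM in female KO and 1368 to 1829 RPKM in female Het cells. The female groups did not overlap. Among single markers this held for Dazl and Ddx4, while the other germ cell markers overlapped in females. By limma 0 of the 8 germ cell markers rose or fell in either sex. The 5 Leydig cell markers (steroid-producing cells of the testis) summed to 26.87 to 56.14 RPKM in male KO cells, 3.42 to 5.32 RPKM in male Het cells and 19.84 RPKM in male WT cells, and in females to 5.61 to 6.08 RPKM in KO and 4.88 to 12.06 RPKM in Het cells. By limma 4 of the 5 rose in males, where 0.614% of 13518 genes rose, and 0 rose or fell in females, where 0.399% rose and 0.0074% fell. The 5 stromal markers summed to 31.8 to 37.25 RPKM in female KO, 11.87 to 26.5 RPKM in female Het and 28.26 RPKM in female WT cells, and the 5 Sertoli markers to 44.95 to 56.77 RPKM in female KO, 18.23 to 34.89 RPKM in female Het and 41.73 RPKM in female WT cells. The WT sums lay above all female Het and below both female KO libraries. Most of the female Sertoli sum was Cldn11, at 36.4 to 42.47 RPKM in KO and 11.82 to 27.26 RPKM in Het cells. Sox9 stood at 3.91 to 6.04 RPKM in female KO and 1.9 to 3.36 RPKM in female Het cells. Wt1 overlapped, and Amh and Dhh reached at most 0.57 and 0.32 RPKM in these female libraries. In males both lists overlapped, the stromal one at 23.38 to 23.81 RPKM in KO and 10.63 to 26.54 RPKM in Het cells and the Sertoli one at 28.4 to 46.4 RPKM in KO and 15.17 to 39.97 RPKM in Het cells. The 5 pregranulosa markers, of the supporting cells of the ovary, overlapped in females, at 15.88 to 20.44 RPKM in KO and 7.74 to 16.21 RPKM in Het cells. In both sexes 0 stromal, Sertoli or pregranulosa markers rose or fell by limma. None of the listed markers was at 0 in all 12 libraries. In bulk libraries fewer cells of a type and less RNA per cell cannot be told apart, and the part of other cell types in the ERV1 differences was not tested.

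In KO germ cells a small set of ERV1 families had more RNA, led by the GLn internal region MMERGLN-int, with RLTR1B and its internal region, all 3 MLV families and 1 VL30 family. Over both sexes 7 of the 67 tested families rose and 0 fell, where 6.82% of all 528 families rose, in a fit that has no term for the replicate number. Without RLTR6-int, which entered through its KO values, 6 rose. The 6.82% stands for 36 families, of which 6 likewise had fewer than 2 Het libraries at 0.1 RPKM. Among ERVK families 25 of 142 rose, and among ERVL families 1 of 69. Within a sex, MMERGLN-int and RLTR1B-int rose in males (2 of 67, where 2.46% of all families rose), and MMERGLN-int in females (1 of 67, where 1.89% of all families rose). At an unadjusted p under 0.05, 17 ERV1 families differed over both sexes, where 14% of all families did, 10 in males, where 9.85% did, and 7 in females, where 7.39% did. All 7 families called over both sexes were among the 23 rodent-named ones, and 0 of the 44 tested families with other names were called. RLTR1, with 2 of the 7 calls, and LTRIS were singled out after their values were seen. The split of rodent-named from other families, here and below, is therefore a description and no test.

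MMERGLN-int, the internal region of GLn (proviruses named for a glutamine tRNA primer site), had 1.27 and 2.634 RPKM in male KO cells, against 0.44, 1.027, 0.45 and 1.022 RPKM in the 4 male Het libraries. In females it had 1.54 and 1.99 RPKM in KO cells, against 0.39, 0.79, 0.29 and 0.92 RPKM in Het cells. Every KO library lay above every Het library of its sex, and the WT libraries, at 0.871 RPKM in males and 0.99 RPKM in females, lay among the Het libraries or just above them. The log2 difference was 1.41 over both sexes (SE 0.27, adjusted p = 2.43e-04 by limma), 1.31 in males (SE 0.38, adjusted p = 0.0496) and 1.52 in females (SE 0.38, adjusted p = 0.0119), or 1.25 above the median family over both sexes. Libraries numbered 2 were higher in all 6 groups of 1 sex and genotype, by 0.95 on average, the sixth largest such difference of 528 families. Within libraries numbered 1 and numbered 2, KO exceeded Het by 1.33 and 1.28 in males and by 1.91 and 1.13 in females. The male value was 0.81 without male KO replicate 2 (adjusted p = 0.56), and quantile normalization brought the value over both sexes to 0.72 (adjusted p = 0.137). Of 25 alternatives, 24 kept the call over both sexes, 19 that in females and 12 that in males, and the difference was above 0 in all 25. Median centring gave 1.00 in males (adjusted p = 0.403) and 1.42 in females (adjusted p = 0.0764).

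Next largest over both sexes was the difference of RLTR1B-int, of the RLTR1 group, in which 2 of 5 families passed. RLTR1B-int had 0.50 and 0.790 RPKM in male KO cells, against 0.21, 0.241, 0.20 and 0.214 RPKM in male Het cells. In females it had 0.65 and 0.57 RPKM in KO cells, against 0.33, 0.46, 0.20 and 0.48 RPKM in Het cells. The groups were apart in both sexes, with a wide gap in males and a narrow one in females. The log2 difference was 0.93 over both sexes (SE 0.21, adjusted p = 0.00264 by limma) and 1.21 in males (SE 0.29, adjusted p = 0.00993), and 0.65 in females (adjusted p = 0.566). Female Het cells had more RLTR1B-int RNA than male Het cells by 0.52 (SE 0.24, adjusted p = 0.77), and the female minus male difference of the KO effect was -0.56 (SE 0.42, adjusted p = 0.898). The male call was lost without male KO replicate 2 (0.93, adjusted p = 0.403).

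RLTR1B, the LTR of that name, had 0.32 and 0.517 RPKM in male KO cells, against 0.17, 0.234, 0.14 and 0.245 RPKM in male Het cells, and 0.39 and 0.42 RPKM in female KO cells, against 0.13, 0.27, 0.11 and 0.24 RPKM in female Het cells. No KO library fell within the Het range, and the difference was 0.82 over both sexes (SE 0.20, adjusted p = 0.00567 by limma), 0.79 in males and 0.85 in females. Calls for RLTR1B and RLTR1B-int over both sexes were lost without male KO replicate 2 (adjusted p = 0.122 and 0.0784). The other RLTR1 families, RLTR1, RLTR1C and RLTR1D, differed by 0.22, 0.18 and 0.32 over both sexes and did not pass.

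The 3 MLV families moved together. RLTR4_MM-int, an internal region of MLV, had 1.14 and 0.795 RPKM in male KO cells, against 0.38, 0.632, 0.39 and 0.410 RPKM in male Het cells, and 0.72 and 0.90 RPKM in female KO cells, against 0.40, 0.49, 0.54 and 0.38 RPKM in female Het cells. MuLV-int, the second MLV internal region, had 0.41 and 0.447 RPKM in male KO cells, against 0.22, 0.326, 0.18 and 0.310 RPKM in male Het cells, and 0.39 and 0.45 RPKM in female KO cells, against 0.27, 0.18, 0.20 and 0.21 RPKM in female Het cells. For both internal regions KO lay above Het in each sex without overlap. RLTR4_Mm, the MLV LTR, had 1.32 and 1.038 RPKM in male KO cells, against 0.50, 1.058, 0.52 and 0.687 RPKM in male Het cells, and 0.95 and 1.28 RPKM in female KO cells, against 0.61, 0.73, 0.71 and 0.60 RPKM in female Het cells. Its male groups overlapped, since Het1 replicate 2 exceeded the lower KO library.

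Over both sexes the log2 differences were 0.84 for RLTR4_MM-int (SE 0.21, adjusted p = 0.0101 by limma), 0.65 for MuLV-int (SE 0.19, adjusted p = 0.0307) and 0.70 for RLTR4_Mm (SE 0.22, adjusted p = 0.0441). None of the 3 passed in a single sex in this fit. The male differences within libraries numbered 1 and 2 were uneven, at 1.35 and 0.55 for RLTR4_MM-int and 1.22 and 0.25 for RLTR4_Mm, while the female ones were 0.54 and 0.91 for RLTR4_MM-int. Of the alternatives tried, 19 of 24 kept the call of RLTR4_MM-int, 10 of 24 that of MuLV-int and 7 of 25 that of RLTR4_Mm. The WT libraries had 0.374 RPKM of RLTR4_MM-int in males and 0.45 RPKM in females, within the Het range in females and just below it in males. For MuLV-int they had 0.331 RPKM in males and 0.32 RPKM in females, above all Het and below all KO libraries of their sex. For RLTR4_Mm the male WT library, at 0.779 RPKM, lay within the Het range. The female one, at 0.84 RPKM, lay above all female Het and below the female KO libraries.

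**Figure D1:**
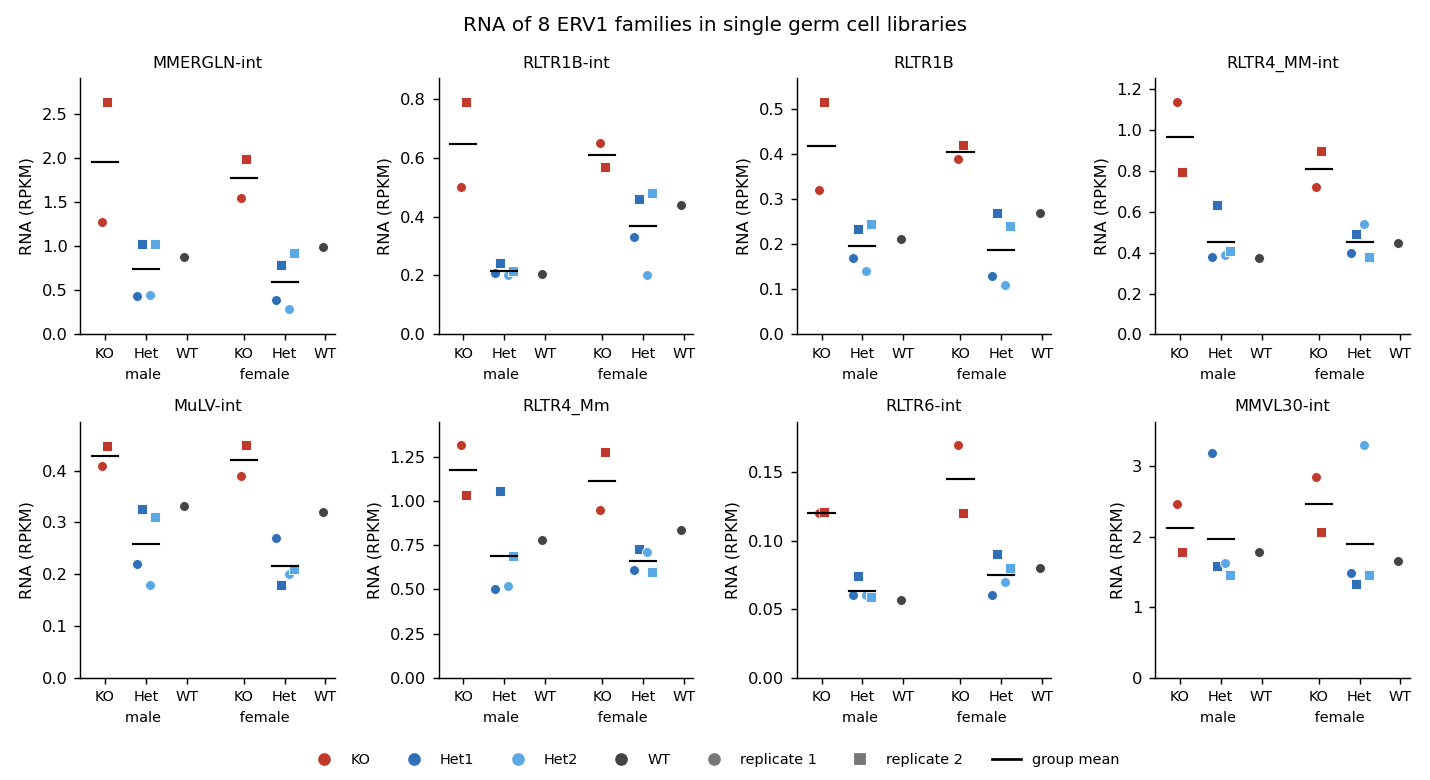
RNA of 8 ERV1 families, in RPKM on a linear axis from 0, in each KO, Het and WT library of male and female germ cells. Circles are libraries numbered 1, squares are libraries numbered 2, and bars are group means (KO n = 2, Het n = 4 per sex). The KO libraries of MMERGLN-int lie above all Het libraries in both sexes, whereas those of MMVL30-int lie among them.

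MMVL30-int, an internal region of VL30, was the most abundant ERV1 RNA and did not pass the test. It averaged 1.93 RPKM over the 8 Het libraries, ahead of RLTR4_Mm (0.677), MMERGLN-int (0.666), MER34A1 (0.6) and RLTR4_MM-int (0.453). MMVL30-int had 2.46 and 1.786 RPKM in male KO cells, against 3.19, 1.576, 1.62 and 1.458 RPKM in male Het cells, and 2.85 and 2.07 RPKM in female KO cells, against 1.48, 1.33, 3.30 and 1.45 RPKM in female Het cells. In each sex 1 Het library exceeded both KO libraries. With the sexes combined, KO minus Het was 0.31 (SE 0.25; limma, adjusted p = 0.734), which reached 0.57 (adjusted p = 0.11) without these 2 Het libraries and was -0.62 (adjusted p = 0.262) after quantile normalization.

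The other 2 VL30 families were at lower levels. RLTR6-int had 0.12 and 0.121 RPKM in male KO cells, against 0.06, 0.074, 0.06 and 0.059 RPKM in male Het cells, and 0.17 and 0.12 RPKM in female KO cells, against 0.06, 0.09, 0.07 and 0.08 RPKM in female Het cells. KO stood apart above Het in both sexes, with a difference of 0.46 (SE 0.14; limma, adjusted p = 0.0441). This family was in the fit only through its KO values, so this call is no independent support; with no filter the adjusted p was 0.0407. All these values lie near or below the added 0.1 RPKM, which compresses the difference, and 5 of 24 alternatives kept the call. RLTR6_Mm, the VL30 LTR, had 0.27 and 0.210 RPKM in male KO cells, against 0.14, 0.170, 0.09 and 0.155 RPKM in male Het cells, and 0.24 and 0.27 RPKM in female KO cells, against 0.10, 0.24, 0.13 and 0.20 RPKM in female Het cells. It differed by 0.48 (SE 0.18, adjusted p = 0.123), and passed under median centring (0.28, adjusted p = 0.0294).

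The 4 libraries with most MMVL30-int RNA were also the 4 with most RNA of 4 erythroid genes (3 globin genes and Alas2). In KO cells these were female KO replicate 1, with 2.85 RPKM of MMVL30-int and an erythroid sum of 53.39 RPKM, and male KO replicate 1, with 2.46 and 21.14 RPKM. In Het cells they were female Het2 replicate 1, with 3.30 RPKM of MMVL30-int and an erythroid sum of 332.1 RPKM, and male Het1 replicate 1, with 3.19 and 10.29 RPKM. All 4 carry the replicate number 1, and the other libraries, WT included, had at most 2.07 RPKM of MMVL30-int and an erythroid sum of at most 3.62 RPKM. MMVL30-int was the family with the most negative difference between replicate numbers 2 and 1 of all 528, at -0.55, and was lower in number 2 in 6 of 6 groups. The part of red blood cells in this RNA was not tested.

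MURVY, a retroviral repeat that is amplified on the mouse Y chromosome, changed little with genotype and strongly with the replicate number. MURVY-int had 0.03 and 0.279 RPKM in male KO cells, against 0.04, 0.178, 0.01 and 0.155 RPKM in male Het cells, and 0.04 and 0.23 RPKM in female KO cells, against 0.01, 0.23, 0.01 and 0.21 RPKM in female Het cells. The first value of each genotype, from the library numbered 1, was the low one in both sexes. Libraries numbered 2 exceeded those numbered 1 by 1.34 log2 units for MURVY-int, 1.24 for RLTR5_Mm and 0.85 for MURVY-LTR, which rank first, second and seventh of 528 families, each in 6 of 6 groups. The WT libraries, which carry number 1, had 0.156 RPKM of MURVY-int in males and 0.18 RPKM in females, like libraries numbered 2.

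Against this spread, KO and Het differed over both sexes by 0.24 for MURVY-int (SE 0.27, adjusted p = 0.734 by limma), 0.28 for RLTR5_Mm (SE 0.26, adjusted p = 0.734) and 0.12 for MURVY-LTR (SE 0.21, adjusted p = 0.738). The sign of all 3 turned when single KO libraries numbered 2 were left out, which leaves only number 1 among the KO libraries of that sex. Within libraries numbered 1 and 2, KO exceeded Het for MURVY-int by 0.07 and 0.51 in males and by 0.35 and 0.05 in females. For RLTR5_Mm these differences were 0.18 and 0.16 in males and 0.33 and 0.46 in females. For MURVY-LTR they were 0.22 and 0.13 in males and 0.09 and 0.05 in females. Female Het cells had as much MURVY-int RNA as male Het cells by their means, 0.115 ± 0.12 RPKM in females and 0.0958 ± 0.083 RPKM in males (SD, n = 4 each; log2 difference 0.05, SE 0.31). In the same libraries Eif2s3y, a Y-linked gene, stood at no more than 0.38 RPKM in the female libraries and at 43.35 to 60.36 RPKM in the male ones. Which copies of MURVY gave these reads was not tested.

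**Figure D2:**
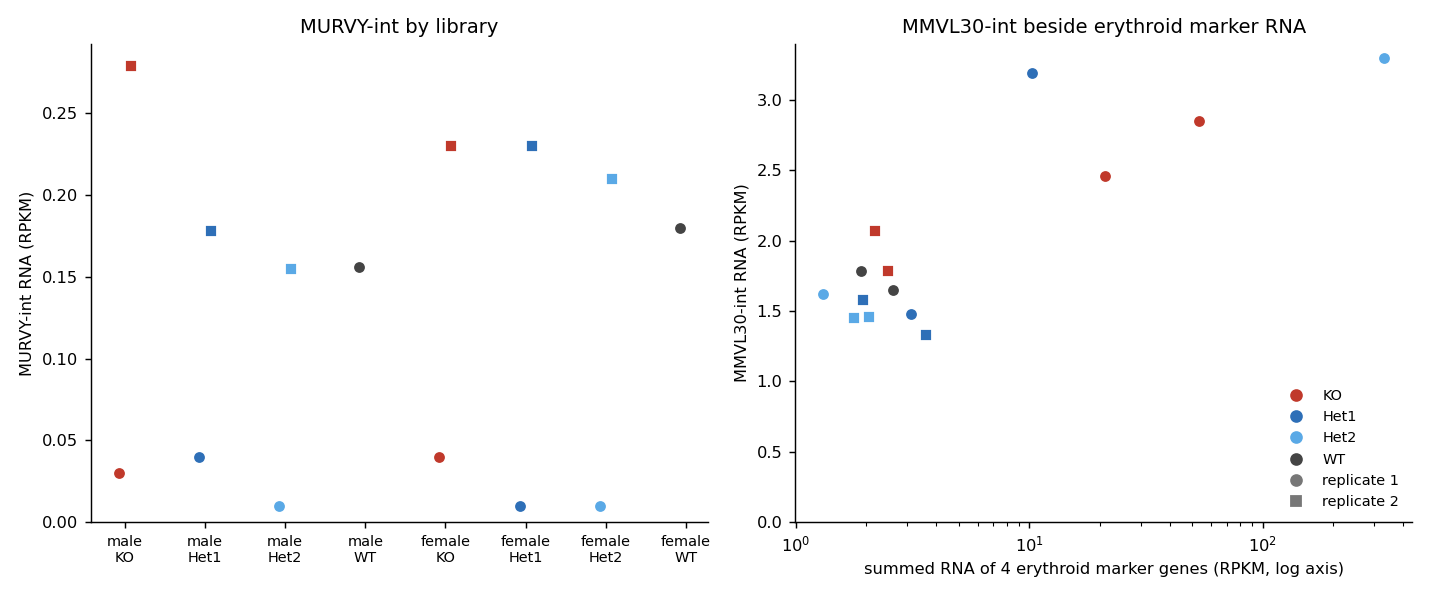
Left, MURVY-int RNA (RPKM) in each germ cell library by sex and genotype. Right, MMVL30-int RNA (RPKM) against the summed RNA of 4 erythroid genes (RPKM, log axis). KO and Het libraries numbered 2 hold at least 0.155 RPKM of MURVY-int and those numbered 1 at most 0.04 RPKM, and the 4 libraries with MMVL30-int above 2.07 RPKM have erythroid sums of 10.29 RPKM or more.

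The MuRRS and LTRIS families did not pass. The differences of all 8 were above 0 over both sexes, as were those of 511 of all 528 families. MuRRS-int differed by 0.45 over both sexes (SE 0.18, adjusted p = 0.164 by limma) and MuRRS4-int by 0.20 (SE 0.16, adjusted p = 0.734). The 6 LTRIS families had differences between 0.18 and 0.45, with a median of 0.32, and 3 of them had an unadjusted p under 0.05. LTRIS2 had 0.23 and 0.219 RPKM in male KO cells, against 0.15, 0.151, 0.11 and 0.158 RPKM in male Het cells, and 0.23 and 0.24 RPKM in female KO cells, against 0.13, 0.22, 0.12 and 0.19 RPKM in female Het cells. It and LTRIS3 are 2 of the 9 ERV1 families in which KO lay above Het without overlap in both sexes, where 7.01% of all families did so. In males alone 27 of 67 families were apart above Het, where 34.5% of all families were, and in females 11 of 67, where 9.47% of all families were.

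The 44 tested families with other names had a median difference of 0.16 over both sexes and a range of -0.12 to 0.48, and 41 of them were above 0. The median of all 528 families was 0.17, with 511 of 528 above 0. For the 23 rodent-named families the median was 0.39, the range 0.12 to 1.41, and all 23 were above 0. Internal regions had a median of 0.33, with 5 of 15 called, and LTRs a median of 0.18, with 2 of 52 called. Of all families 6.82% rose, and the 5 include RLTR6-int, which entered the fit through its KO values. MER34A1, the fourth most abundant ERV1 RNA, had 0.581 ± 0.17 RPKM in male KO (n = 2) and 0.632 ± 0.073 RPKM in male Het cells (n = 4), and 0.515 ± 0.050 RPKM in female KO (n = 2) and 0.568 ± 0.059 RPKM in female Het cells (n = 4; SD throughout). Its difference of -0.12 (adjusted p = 0.744) was the lowest of the 67.

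**Figure D3:**
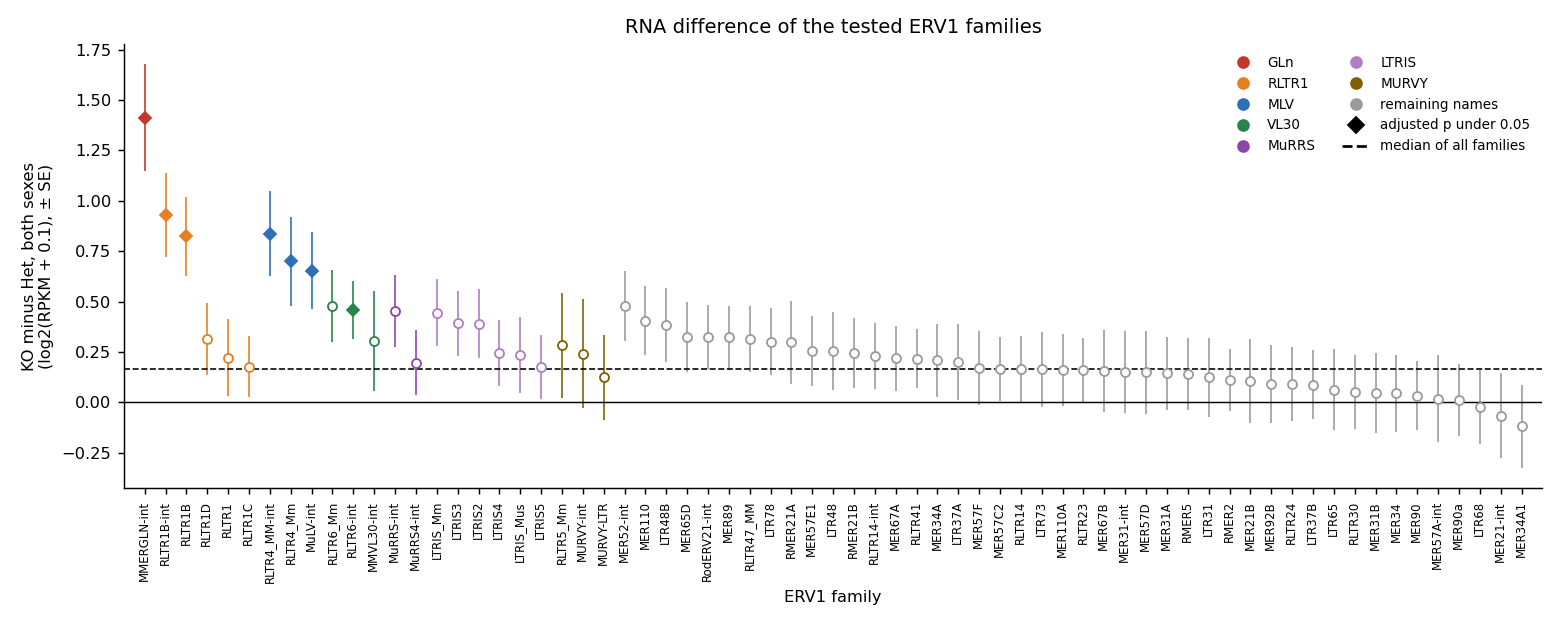
RNA difference of KO minus Het over both sexes (log2(RPKM + 0.1), mean and SE from limma) for the 67 tested ERV1 families, ordered by name group. Filled diamonds mark the 7 families with an adjusted p under 0.05, and the dashed line is the median of all 528 families, 0.17. The families with other names scatter around the dashed line between -0.12 and 0.48.

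The sexes were compared in the same fit. No family passed for the female minus male difference of the KO effect (0 of 528; 3 families had an unadjusted p under 0.05, none of them ERV1) or for female minus male in Het cells (0 of 528; 18 families had an unadjusted p under 0.05, 5 of them ERV1). These counts, from 2 KO libraries in each sex, are no evidence of equal effects. For MMERGLN-int the female minus male difference of the KO effect was 0.21 (SE 0.53), and for RLTR4_MM-int it was -0.23 (SE 0.42).

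H3K9me3 over ERV1 was concentrated on the rodent-named families and was lower on nearly all of them in KO cells, by modest amounts. In males their H3K9me3 ranged from 0.62 to 3.08 RPKM in KO cells, against 0.69 to 3.14 RPKM in Het cells, and in females from 0.54 to 1.34 RPKM in KO cells, against 0.74 to 1.73 RPKM in Het cells. The median log2 difference of the 23 was -0.18 in males and -0.42 in females, and 22 of the 23 were lower in both sexes. RLTR6-int, at 1.66 RPKM in both male libraries, was the exception. Of all 102 families at 0.5 RPKM or more, 87.3% were lower in both sexes, so this direction is not particular to ERV1. The other 46 families carried little of the mark, with medians in males of 0.16 RPKM in KO and 0.14 RPKM in Het cells. Of these 46, 28 were higher in KO in both sexes, where 296 of all 539 families were. With 1 library per sex and genotype these values have no replicate within a group.

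A change was defined as a 2-fold difference in the same direction in both sexes, among families with 0.5 RPKM or more in the higher of KO and Het in each sex. No ERV1 family of the 24 at this level met it, nor did any of the 102 families of all kinds, and the count was also 0 at 1.5-fold. Counted at 1.25-fold, a size chosen after the values were seen, 6 of 24 ERV1 families were lower, where 11.8% of all 102 were. Irrespective of size 22 of 24 were lower in both sexes, where 87.3% of all were. A limma fit of the 4 libraries had terms for genotype and sex. Its error is the disagreement of the sexes, drawn by limma towards a trend over all 102 families. In this fit 7 of 24 were lower and 0 higher, where 20.6% of all were lower. These 7 were RLTR4_MM-int, RLTR1B, RLTR4_Mm, RLTR1D, LTRIS2, LTRIS3 and MuLV-int, with adjusted p from 0.00953 to 0.047.

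The largest loss of H3K9me3 among ERV1 was on RLTR4_MM-int, with 1.08 RPKM in male KO cells, against 1.45 RPKM in male Het cells, and 0.78 RPKM in female KO cells, against 1.31 RPKM in female Het cells. KO thus kept 74.5% of the Het value in males and 59.5% in females (mean log2 difference -0.54). RLTR1B followed, with 1.14 RPKM in male KO cells, against 1.59 RPKM in male Het cells, and 0.98 RPKM in female KO cells, against 1.55 RPKM in female Het cells (-0.53). The MLV LTR RLTR4_Mm kept 74.1% in males and 66.7% in females, RLTR1D 74.7% and 67.6%, and LTRIS2 71.7% and 69.2%, each with a mean difference of -0.46. RNA rose for RLTR4_MM-int, RLTR1B and RLTR4_Mm among these 5, and RLTR1D and LTRIS2 did not pass for RNA.

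MMERGLN-int, the family with the largest RNA difference, had 1.44 RPKM of H3K9me3 in male KO cells, against 1.53 RPKM in male Het cells, and 0.94 RPKM in female KO cells, against 1.30 RPKM in female Het cells. It kept 94.1% in males and 72.3% in females (-0.26, adjusted p = 0.162 by limma), less of a loss than on 11 of the other 22 rodent-named families. RLTR1B-int had 0.68 RPKM in male KO cells, against 0.74 RPKM in male Het cells, and 0.69 RPKM in female KO cells, against 0.89 RPKM in female Het cells (-0.22). MURVY-int carried the most H3K9me3 of any ERV1 family in males, at 3.08 RPKM in KO and 3.14 RPKM in Het cells, and less in females, at 0.92 RPKM in KO and 1.23 RPKM in Het cells. The total H3 library, from C57BL/6 males, gave MURVY-int 0.05 RPKM, the lowest of all ERV1 families, which ranged from 0.05 to 0.25 RPKM.

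The 5 largest gains of H3K9me3 were on MER65D, MER31-int, MER110A, MER57F and MER92B, all at low levels. MER65D had 0.16 RPKM in male KO cells, against 0.11 RPKM in male Het cells, and 0.19 RPKM in female KO cells, against 0.16 RPKM in female Het cells (mean log2 difference 0.23). The median family of all 539 was also higher in KO, by 0.14 in males and 0.05 in females. After centring each library on its median, 30 ERV1 families were lower and 20 higher in both sexes, compared with 24 lower and 28 higher as deposited.

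**Figure D4:**
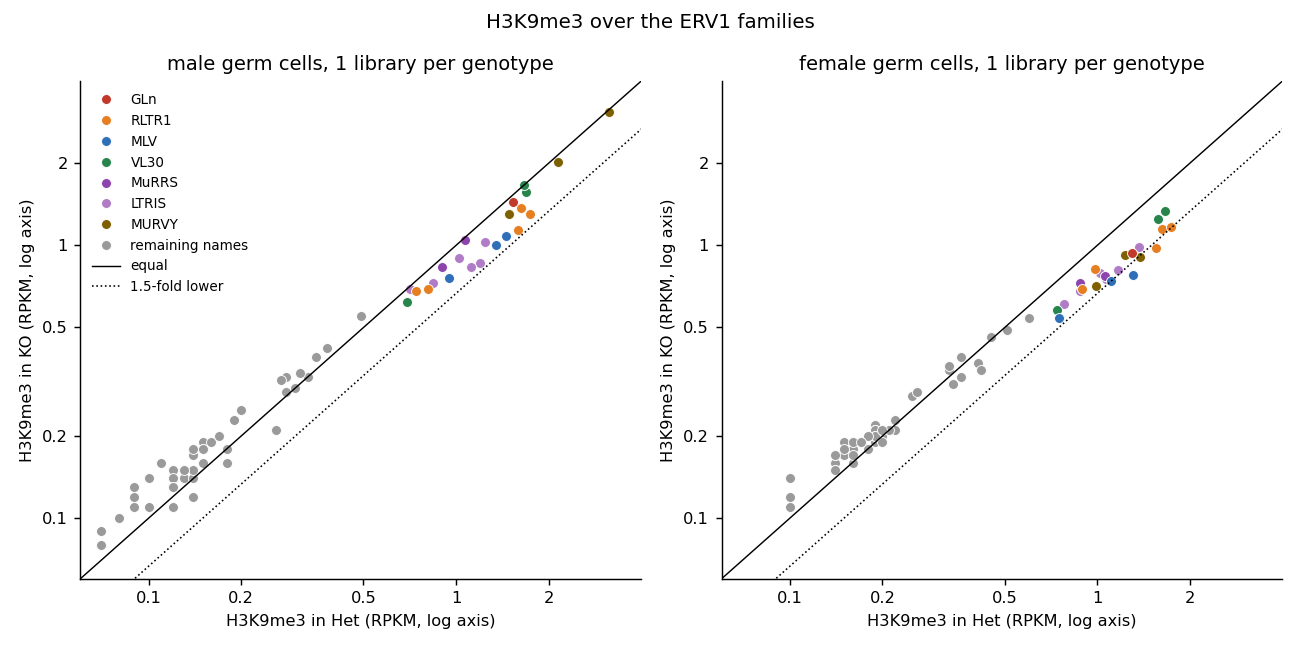
H3K9me3 of the 69 ERV1 families in KO (vertical) against Het (horizontal) germ cells of each sex, both in RPKM on log axes, 1 library per axis. The solid line marks equal values and the dotted line 1.5-fold lower in KO. Coloured rodent-named families lie on or below the solid line, farther below it in females, and grey families lie mostly at or above it.

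H3K27me3 over the same families was also lower in KO cells, as it was over most families of all kinds at 0.5 RPKM or more. Of 22 ERV1 families at 0.5 RPKM or more, 0 met the 2-fold or the 1.5-fold rule, 5 were lower at 1.25-fold, where 13.6% of all 66 were, and all 22 were lower in both sexes, where 98.5% of all were. In the limma fit with sex as a term 16 were lower, where 72.7% of all were. RLTR1B had the largest loss, with 0.57 RPKM in male KO cells, against 0.88 RPKM in male Het cells, and 0.57 RPKM in female KO cells, against 0.80 RPKM in female Het cells (-0.49). MMERGLN-int had 0.82 RPKM in male KO cells, against 1.04 RPKM in male Het cells, and 0.63 RPKM in female KO cells, against 0.77 RPKM in female Het cells (-0.28).

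The values of H3K9me3 and H3K27me3 followed each other closely across families. Across the 69 families Pearson's r between the 2 marks in Het cells was 0.985 (Spearman's rho 0.968), and between their log2 differences 0.927 (rho 0.808). H3K9me3 in Het cells also followed the deposited mappability value of a family, with r = 0.908. Mappability runs from 0 to 1, and the direction in which it counts is not stated. The 23 rodent-named families had values of 0.33 to 0.93 and the other 46 of 0 to 0.35. The split by name is therefore nearly a split by this value. Families share libraries, read length and base composition and are not independent replicates, so these are descriptions.

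Set side by side, families with lower H3K9me3 in KO had more RNA in KO across all 67 tested families, and the relation was weaker within the rodent-named and within the other families. The r between the RNA difference over both sexes and the mean H3K9me3 difference was -0.582 across 67 families (rho -0.562). Within the 23 rodent-named families it was -0.231, and within the other 44 it was -0.248. Both differences also followed mappability, the RNA difference with an r of 0.543 across the 67 families (rho 0.521) and the H3K9me3 difference with an r of -0.841 across the 69 (rho -0.77). The part of mappability in the relation of the 2 differences was not tested. The RNA difference and the H3K9me3 level in Het cells had an r of 0.526 over the 67 families and 0.017 within the 23. The RNA level and the H3K9me3 level in Het cells had an r of 0.063, and MMVL30-int, the most abundant RNA, had one of the lower H3K9me3 levels of the 23, at 0.69 RPKM in male and 0.74 RPKM in female Het cells.

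**Figure D5:**
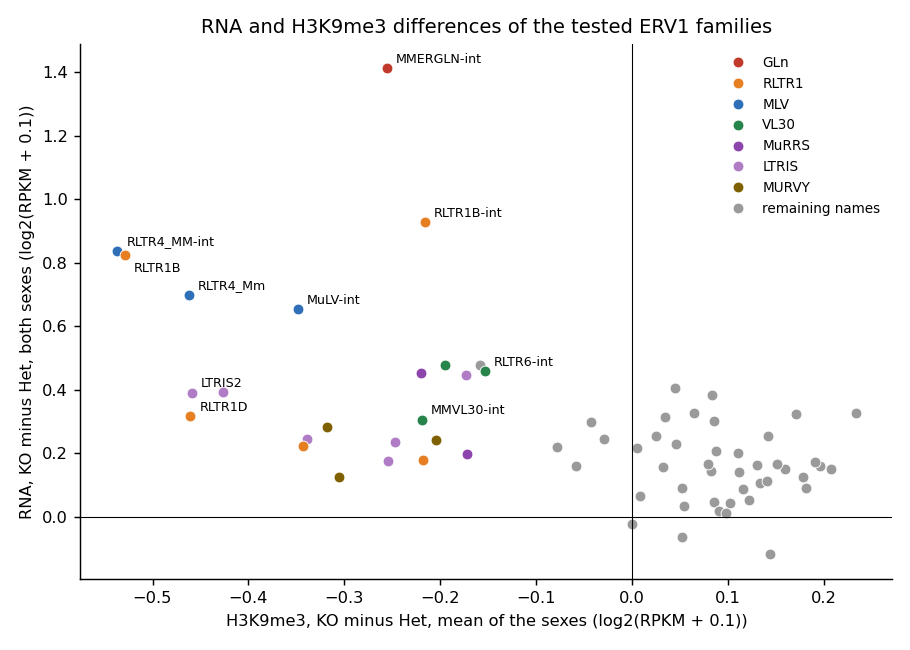
RNA difference over both sexes against the mean H3K9me3 difference of the sexes (both KO minus Het, log2(RPKM + 0.1)) for the 67 tested ERV1 families. Rodent-named families (coloured) lie to the left of 0, with MMERGLN-int highest in RNA at 1.41 and RLTR4_MM-int farthest left at -0.54, and most other families (grey) lie to the right of 0.

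Of 36 genes for silencing of retroviruses, restriction of infection and retroviral receptors, 34 were tested, and 1 rose and 0 fell over both sexes, where 1.01% of 13518 genes rose and 0.0296% fell. The one was Trim5, of a family of cytosolic factors that bind incoming retroviral capsids. It had 2.15 and 5.46 RPKM in male KO cells, against 0.22 to 0.83 RPKM in male Het cells, and 1.85 and 2.01 RPKM in female KO cells, against 0.13 to 0.30 RPKM in female Het cells (log2 difference 1.41 on log2(RPKM + 1), SE 0.19, adjusted p = 0.00164 by limma). The KO libraries lay above all Het libraries in both sexes. Mouse Trim5 has close relatives in a gene cluster, and how reads shared between them were counted is not given. Trim28, the corepressor that recruits SETDB1, differed by 0.004 (adjusted p = 0.998), and Zfp809, the zinc finger protein that binds the MLV primer site, by 0.46 (adjusted p = 0.472). Fv1, a capsid restriction factor derived from a retroviral gag gene, differed by 0.50 (adjusted p = 0.223), and the 4 retroviral receptor genes Slc20a2, Slc7a1, Xpr1 and Slc20a1 by 0.61, 0.51, 0.18 and -0.15 (adjusted p = 0.0685, 0.132, 0.779 and 0.793).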

How the data were processed

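The authors deposited RPKM values per repeat family and per gene. Reads were aligned to mm9, with BWA named for RNA and ChIP and SAMtools for RNA, per the submitters' processing notes; the sources used here give no versions, read counter or depth. The repeat table also gives, per the file headers, a mappability fraction and the number of elements of each family (other unit). From 12 RNA libraries, values were fitted as log2(RPKM + 0.1) with limma 3.58.1 (lmFit, eBayes with trend) in R 4.3.3 as 4 group means, with two-sided tests and a Benjamini-Hochberg threshold of 0.05; genes used log2(RPKM + 1) at 1 RPKM or more. WT libraries stayed outside the fit. Scripts were tested on simulated data. Named families are those passing for RNA, all GLn, VL30, MLV, MuRRS and MURVY families, the 5 largest H3K9me3 losses and gains, and the 5 most abundant RNAs in Het; RLTR1, LTRIS and the lowest family were added after their values were seen. Members and lists were chosen with earlier results of these data known. Replicate numbers are shared between genotypes with no stated meaning. DNA methylation, soma and C57BL/6 RNA of repeats were not used here.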

Additional observations from a re-analysis of the deposited data

Results flagged for a closer look

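In the groups of 4 Het libraries, 28 combinations of family and sex were examined for 1 library far from the other 3, and 4 were found; chance gives about 1 in 20. MMVL30-int had 3.19 RPKM in male Het1 replicate 1 and 3.3 RPKM in female Het2 replicate 1, against at most 1.62 RPKM in the other Het libraries. These 2 libraries also had the highest erythroid sums among the Het libraries of their sex, and the relation was not tested. RLTR4_MM-int had 0.632 RPKM in male Het1 replicate 2, against 0.38 to 0.410 RPKM in the other male Het libraries. RLTR6-int had 0.074 RPKM in the same library, against 0.059 to 0.06 RPKM in the others.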

How the results depend on the processing

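The 7 families that rose over both sexes had positive differences under every alternative tried, but the count of calls depended on scaling, controls and single libraries. Over both sexes it was 4 with median centring (MMERGLN-int, RLTR1B-int, RLTR1B and RLTR6_Mm), 3 with quantile normalization, 1 with Het1 alone, 2 with a filter at 1 RPKM (3 ERV1 families tested) and 4 without male Het1 replicate 1 and female Het2 replicate 1 together, an alternative added after seeing the data. In males the count of 2 was 0 with median centring, quantile normalization or Het1 alone, 0 with median centring and the replicate block together, and 1 with Het2 alone, with a pseudocount of 1 or of 0.01, or with no filter. In females the count of 1 was 0 with Het1 alone or with WT added to Het, and 2 with quantile normalization. Leaving out 1 library at a time gave 2 to 11 calls over both sexes, lowest without male KO replicate 2 and highest without female Het1 replicate 2, with 3 without male KO replicate 1 or female KO replicate 2 and 4 without male Het2 replicate 1, female Het2 replicate 1 or female Het2 replicate 2. It gave 0 to 3 calls in males (0 without male KO replicate 2, 1 without male Het1 replicate 1 or male Het2 replicate 1) and 0 to 2 in females (0 without female Het2 replicate 1 or female KO replicate 2, 2 without female Het1 replicate 2). The count for differences between the sexes stayed at 0.

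With replicate number as a block the counts were 14 over both sexes, where 12.1% of all families were called, 5 in males, where 6.06% were, and 5 in females, where 4.92% were, and with median centring added 5, 0 and 3. The labels give the numbers no meaning, and each comparison has only 2 of them; deviations of libraries with the same number correlated with a positive sign in 14 of 15 pairs of groups, over the whole range from -0.137 to 0.669.

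Signs turned for families that did not pass: MMVL30-int was at -0.62 with quantile normalization; MuRRS4-int at -0.005 with median centring, with or without the block, and -0.033 with quantile normalization; MURVY-LTR at -0.078 with median centring, with or without the block, -0.085 with quantile normalization, -0.03 without male KO replicate 2 and -0.13 without female KO replicate 2 (0.37 at most, without female KO replicate 1); MURVY-int at -0.14 and -0.07 without these 2 libraries (0.63 at most, without male KO replicate 1); and RLTR5_Mm at -0.076 without female KO replicate 2 (0.64 at most, without female KO replicate 1). For H3K9me3 the 0 changes became 7 by limma and 6 at 1.25-fold, and for H3K27me3 16 and 5. The cause was not tested. Depth is unknown, and the added 0.1 RPKM compresses the differences of families at low levels.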
